A study of Mus musculus with 10 samples.

Results

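Spo11, Dmc1, Tex11, Piwil1 and Prmt5 are 5 mouse genes of meiotic recombination and of the piRNA pathway, chosen as the probes whose platform symbol is one of these names. Each of the 5 was read by 1 probe, and these were 5 of the 8738 genes with values. A filter on low intensity left 7422 of 9897 probes, for 6573 genes, and all 5 passed it. Expression was measured in the testis of male BALB/c mice, 9 weeks old, given 1 subcutaneous injection. The treated mice received 60 µg of trichostatin A (TSA), an inhibitor of histone deacetylases, and were killed after 2.5, 5, 7.5 or 10 h. The control mice received the carrier of DMSO and PBS alone and were killed after 10 h, so that among the TSA groups only the 10 h group matched them in time. RNA of the 3 mice of each group was pooled and read on 2 CodeLink arrays, which gave 5 pools and 10 arrays. A pool counts as n = 1, its 2 arrays are technical duplicates, and differences between single animals were not measured. Since whole testis was read, fewer cells of a type and less RNA per cell cannot be told apart.

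In meiosis, homologous chromosomes pair and exchange DNA after programmed double-strand breaks, and a part of the breaks is repaired as crossovers. The Piwi-interacting RNAs (piRNAs) are small RNAs of the germ line that guide Piwi proteins to transposons and other transcripts. Piwi proteins carry methylated arginines, which Tudor domain proteins of the germ granules bind. In the testis these steps take place mainly in spermatocytes, and the piRNA proteins act also in round spermatids.

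The mouse RefSeq promoter table (build GRCm38.p6) held no entry for Spo11 and Tex11. It matched 3 of the 5 genes, and the 250 bases before the transcript start of the table's entry are shown for these. The RefSeq gene span begins further upstream than that start for Piwil1 and Dmc1, so 175 bases of the Piwil1 window and 50 of the Dmc1 window lie inside it, and 0 of the Prmt5 window. Capitals mark every match, on either strand, to 5 motifs: the GC box GGGCGG, the CCAAT box CCAAT, the E-box CACGTG, the MYB core AACNG and the cyclic AMP core TGACG. No match overlapped a match of another motif.
Piwil1: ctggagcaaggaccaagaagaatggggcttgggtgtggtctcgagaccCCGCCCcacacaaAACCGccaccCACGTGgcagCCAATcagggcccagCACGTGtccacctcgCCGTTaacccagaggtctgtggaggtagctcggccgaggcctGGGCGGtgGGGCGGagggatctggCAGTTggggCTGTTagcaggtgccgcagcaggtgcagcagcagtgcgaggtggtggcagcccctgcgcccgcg
Prmt5: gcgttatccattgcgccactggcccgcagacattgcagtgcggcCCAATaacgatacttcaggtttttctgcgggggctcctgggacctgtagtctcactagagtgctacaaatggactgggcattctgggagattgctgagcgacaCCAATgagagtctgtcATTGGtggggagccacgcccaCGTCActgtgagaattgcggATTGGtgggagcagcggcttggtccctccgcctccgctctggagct
Dmc1: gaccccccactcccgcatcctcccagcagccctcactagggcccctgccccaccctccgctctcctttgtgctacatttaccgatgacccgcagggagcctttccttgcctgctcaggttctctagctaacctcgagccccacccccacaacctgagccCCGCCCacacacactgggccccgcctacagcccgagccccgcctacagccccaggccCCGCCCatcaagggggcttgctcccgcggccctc
The Piwil1 window, chr5:128735996-128736245 on the plus strand, held 4 MYB cores, 3 GC boxes, 2 E-boxes and 1 CCAAT box. The Prmt5 window, chr14:54517471-54517720 on the minus strand, held 4 CCAAT boxes and 1 cyclic AMP core. The Dmc1 window, chr15:79605110-79605359 on the minus strand, held 2 GC boxes and no match to the other motifs. Of 32851 mouse promoters of the same length, 74.2% held a MYB core, 33.8% a CCAAT box, 32.7% a GC box, 17.8% a cyclic AMP core and 6.02% an E-box. The E-box was thus the rarest of the 5 motifs, and of the 3 windows the one of Piwil1 held it. The windows had 16 CpG dinucleotides for Piwil1, 13 for Prmt5 and 12 for Dmc1, against a median of 6 over all promoters. These matches describe letters and not binding.

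Duplicate arrays correlated with r between 0.995 and 0.998 over the tested probes. Those of the 7.5 h pool differed most, with a standard deviation of 0.163 log2 units against 0.0934 to 0.122 in the other pools. Spermatocyte markers (14 of 15 measured) summed to between 535 and 560 units of intensity on the 8 TSA arrays, against 568 to 584 on the control arrays. Spermatid markers (11 of 19 measured) summed to between 850 and 950 on the TSA arrays, against 833 to 865 on the control arrays. The markers of both cell types were thus present in every pool, with the spermatocyte sum lower and the spermatid sum partly higher in TSA pools than in control. Their part in the results below was not tested. Liver markers (16 of 22 measured) summed to 210 and 211 in the 5 h pool, against 17.3 to 19.06 in the other TSA pools and 16.2 to 17.6 in control, so the 5 h pool stood apart. The test of TSA against control is therefore also given without it for Spo11, Dmc1, Tex11 and Piwil1. So are the Prmt5 trend and the calls of the other pathway genes that passed.

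Of the 5 genes, Tex11 was higher than control in every TSA pool, Prmt5, Piwil1 and Spo11 were lower in every TSA pool, and Dmc1 lay nearest to control. Both arrays of all 4 TSA pools lay above both control arrays for Tex11 and below them for Prmt5, Piwil1 and Spo11. Over all tested probes 22.2% were above and 23% below in this sense. Within single pools, arrays that did not overlap control were common, at 75.3%, 78.6%, 75.1% and 78.5% of all tested probes at 2.5, 5, 7.5 and 10 h. A size rule without a p-value called a probe when its pool differed at least 2-fold from control, an absolute log2 fold of 1, with no overlap of the arrays. It called 0 of the 5 genes at 2.5 h and 0 at 5 h, where it called 0.916% and 1.55% of all tested probes. At 7.5 h it called 1 gene, Tex11, as higher, beside 1.01% of all probes called higher. At 10 h it called 1 gene, Prmt5, as lower, beside 1.44% of all probes called lower. The 4 comparisons share 1 control pool and are not independent.

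**Figure D1:**
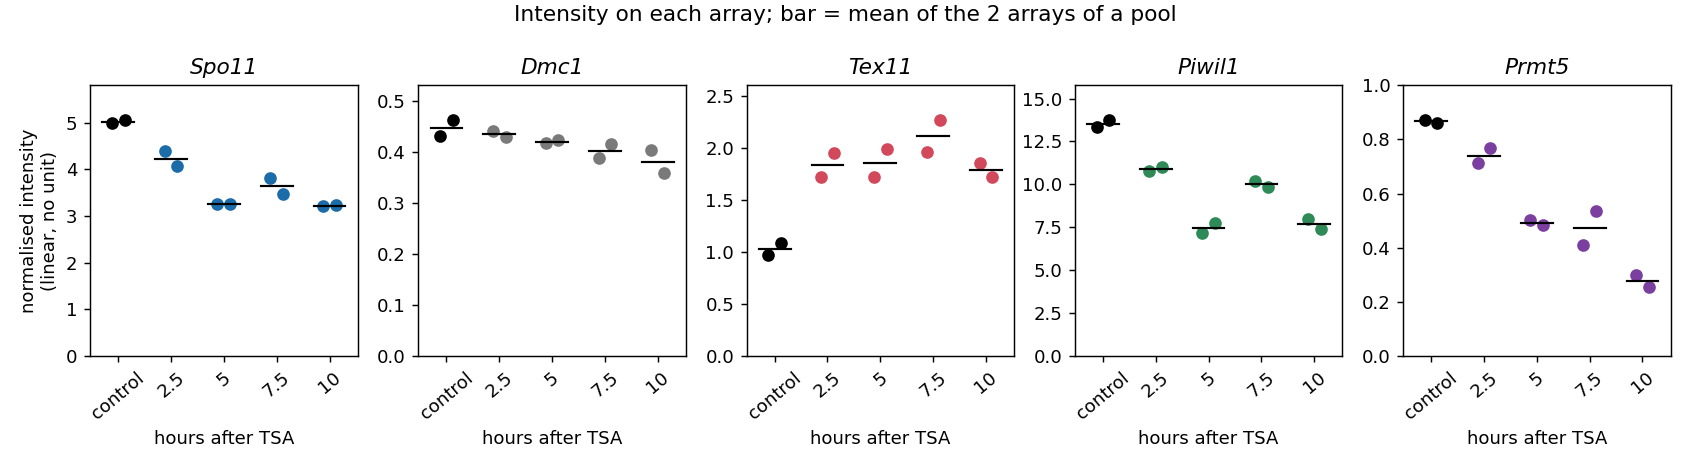
Intensity (deposited linear units, median probe near 1) of the 5 genes on the 10 arrays, 1 panel per gene with its own axis, against the pool. Points are arrays and short lines are pool means. Tex11 lies above control in all TSA pools, Prmt5 is lowest at 10 h, and Spo11 and Piwil1 are lower at 5 and 10 h than at 7.5 h.

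Recombination begins with the cut that SPO11, a protein related to topoisomerases, makes in meiotic DNA. The probe for Spo11, a gene on chromosome 2, read 4.99 and 5.05 on the control arrays, 4.38 and 4.07 at 2.5 h, 3.27 and 3.26 at 5 h, 3.81 and 3.47 at 7.5 h, and 3.21 and 3.24 at 10 h. Both control arrays were the highest of the 10, and no TSA pool overlapped them. The log2 folds against control, each with the standard error (SE) of the duplicate arrays, were -0.25 ± 0.054, -0.62 ± 0.0080, -0.46 ± 0.068 and -0.64 ± 0.0099 at 2.5, 5, 7.5 and 10 h. At 10 h the gene was thus at 64.2% of control. The mean of the 4 TSA pools was below control by a log2 fold of -0.49 ± 0.17 (limma on 5 pool means, Benjamini-Hochberg adjusted p = 0.127), which did not pass the 0.05 threshold, and all 4 pools were lower. The estimate was -0.45 (adjusted p = 0.203 by limma) without the 5 h pool. The 5 h and 10 h pools were lower than the 7.5 h pool lying between them, with a log2 difference of 0.16 ± 0.067 for 7.5 h minus 5 h and -0.18 ± 0.067 for 10 h minus 7.5 h.

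DMC1, a recombinase of meiosis, coats the ends made at the breaks and carries out the search for the homologous strand. Its probe, for a gene on chromosome 15, read 0.432 and 0.463 on the control arrays, 0.442 and 0.431 at 2.5 h, 0.418 and 0.424 at 5 h, 0.388 and 0.416 at 7.5 h, and 0.404 and 0.359 at 10 h. The 2.5 h arrays overlapped control, and the other TSA pools lay just below it. The log2 folds were -0.036 ± 0.053, -0.088 ± 0.051, -0.15 ± 0.071 and -0.23 ± 0.099 at 2.5, 5, 7.5 and 10 h. The mean TSA pool differed from control by -0.13 ± 0.12 (limma, Benjamini-Hochberg adjusted p = 0.524), with a 95% interval of -0.42 to 0.16. Without the 5 h pool the estimate was -0.14 ± 0.14 (limma, adjusted p = 0.578). The Dmc1 probe was also dim, with a mean intensity of 0.418 and a filter limit of 0.207.

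TEX11 is encoded on the X chromosome and acts with the crossover factors on paired chromosomes. It was the 1 gene of the 5 that rose in the test of TSA against control. The probe read 0.971 and 1.09 on the control arrays, 1.73 and 1.95 at 2.5 h, 1.73 and 1.99 at 5 h, 1.97 and 2.27 at 7.5 h, and 1.86 and 1.72 at 10 h. Every TSA array lay far above both control arrays, and the TSA pools overlapped each other at neighbouring levels. The log2 folds were 0.84 ± 0.12, 0.85 ± 0.13, 1.04 ± 0.13 and 0.80 ± 0.10 at 2.5, 5, 7.5 and 10 h. Ranked from the highest of the 7422 tested probes, Tex11 was in place 101 at 2.5 h, 147 at 5 h, 64 at 7.5 h and 249 at 10 h. The mean of the TSA pools was 1.84-fold control, a log2 fold of 0.88 ± 0.13 (limma, Benjamini-Hochberg adjusted p = 0.0439), and 4 of 4 pools were higher. The same test called 2.74% of all tested probes as higher. The call ended when any 1 of the TSA pools was left out, with an adjusted p by limma of 0.0564 without 2.5 h, 0.0910 without 5 h, 0.103 without 7.5 h and 0.0598 without 10 h. The estimate itself stayed between 0.83 and 0.91 in those fits, with 4 pools left in each. Of all tested probes, those fits called 3, 3, 6 and 7 in either direction, against 262 with all pools. The loss of the call was thus not particular to Tex11. The slope over hours was 0.072 ± 0.030 log2 units per hour (limma, adjusted p = 0.194) and did not pass. The size call at 7.5 h was lost with an offset of 0.5 added before the logarithm, where the log2 fold was 0.77, and without control replicate 1 or 7.5 h replicate 2, where it was 0.96 or 0.94.

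PIWIL1, the mouse protein also named MIWI, binds the piRNAs of pachytene spermatocytes and round spermatids. Its probe, for a gene on chromosome 5 whose promoter is shown above, read 13.4 and 13.7 on the control arrays, 10.79 and 10.99 at 2.5 h, 7.17 and 7.77 at 5 h, 10.2 and 9.82 at 7.5 h, and 7.97 and 7.40 at 10 h. No TSA array reached the control arrays. The 5 h and 10 h arrays overlapped each other and were lower than those at 2.5 and 7.5 h. The log2 folds were -0.31 ± 0.024, -0.86 ± 0.061, -0.44 ± 0.034 and -0.82 ± 0.058 at 2.5, 5, 7.5 and 10 h, which at 5 h was place 62 from the lowest of the tested probes. At 10 h the gene was at 56.7% of control. The mean TSA pool was below control by a log2 fold of -0.61 ± 0.23 (limma, Benjamini-Hochberg adjusted p = 0.147), which did not pass, with all 4 pools lower and a 95% interval of -1.15 to -0.060. Without the 5 h pool the estimate was -0.52 ± 0.22 (limma, adjusted p = 0.211). When arrays were centred within bins of neighbouring probe ID numbers, an alternative chosen after the data were seen, the estimate was -0.40 (limma, adjusted p = 0.305). The log2 difference was 0.42 ± 0.064 for 7.5 h minus 5 h and -0.38 ± 0.061 for 10 h minus 7.5 h.

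PRMT5 places symmetric dimethyl groups on arginines of Piwi proteins and of the Sm proteins of the splicing machinery. Among the 5 genes it was the 1 whose fall over the hours after TSA passed the trend test. The probe, for a gene on chromosome 14, read 0.870 and 0.862 on the control arrays, 0.712 and 0.768 at 2.5 h, 0.502 and 0.483 at 5 h, 0.412 and 0.535 at 7.5 h, and 0.299 and 0.257 at 10 h. No TSA pool overlapped control, the 10 h arrays were the lowest of the 10, and the 5 h and 7.5 h pools overlapped each other. The log2 folds were -0.23 ± 0.055, -0.81 ± 0.028, -0.88 ± 0.19 and -1.65 ± 0.11 at 2.5, 5, 7.5 and 10 h. At 10 h the gene was at 32.0% of control, in place 15 from the lowest of the 7422 tested probes. The slope was -0.158 ± 0.0193 log2 units per hour (limma on 5 pool means, Benjamini-Hochberg adjusted p = 0.0223), which comes to -1.58 ± 0.19 over 10 h, and 4 of 4 TSA pools were below control. The trend test called 1.66% of all tested probes as falling. In the TSA pools the hours after TSA were also the hours of killing, and control, placed at 0 h, was killed at 10 h. No slope given here can tell the time since TSA from the hour of killing. Slopes were also negative, without passing, for Spo11 (-0.060 ± 0.018, limma adjusted p = 0.111) and Piwil1 (-0.070 ± 0.025, limma adjusted p = 0.149). The same held for Dmc1 (-0.023 ± 0.013, limma adjusted p = 0.297). The Prmt5 trend passed without the 5 h pool (-0.158, limma adjusted p = 0.0341) and without the 7.5 h pool (adjusted p = 0.0363). It did not pass without the 2.5 h pool (-0.153, limma adjusted p = 0.0580) or the 10 h pool (-0.130, limma adjusted p = 0.161). In each of these fits the trend test called 0 of all tested probes, against 149 with all pools. They thus cannot tell whether the Prmt5 call rests on those pools in particular. The mean TSA pool was below control by -0.89 ± 0.45 (limma, adjusted p = 0.241) and did not pass. The probe was dim, and with an offset of 0.5 added before the logarithm the 10 h log2 fold was -0.81 and the slope -0.079 (limma, adjusted p = 0.0233), so the size call was lost and the trend call was not. With the same centring by ID number, the 10 h log2 fold was -1.28 and the slope -0.124 ± 0.0216 (limma, adjusted p = 0.0459).

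**Figure D2:**
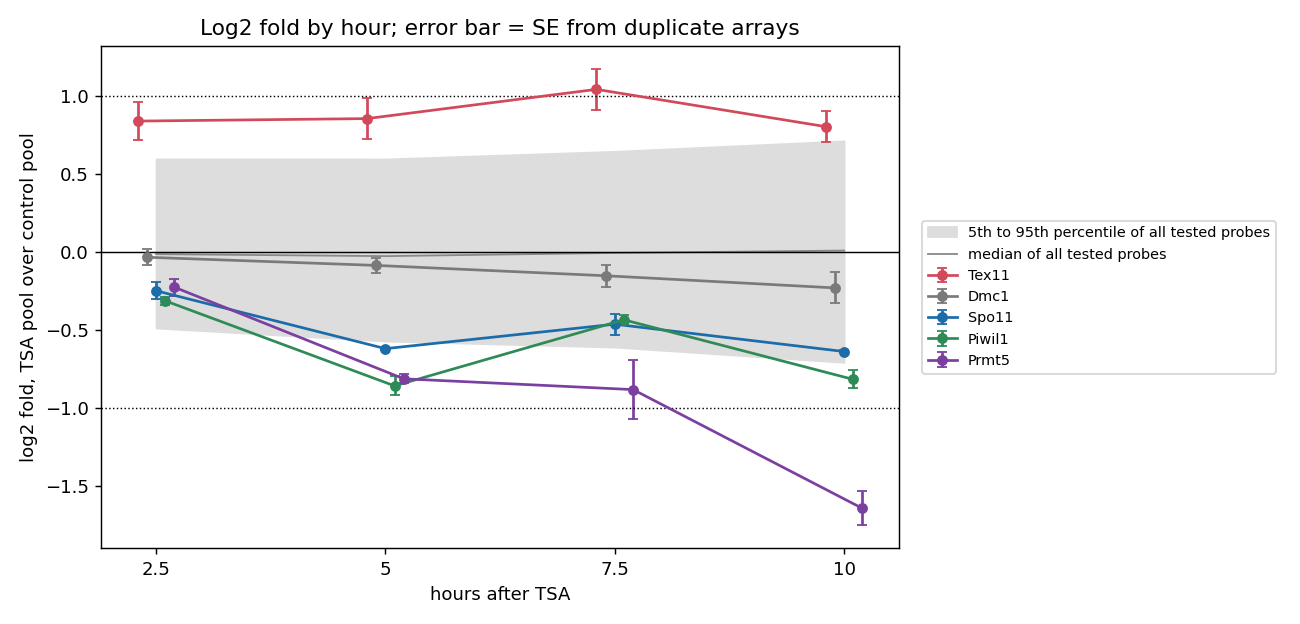
Log2 fold of each TSA pool over the control pool for the 5 genes against hours after TSA, with bars of 1 SE from duplicate arrays, dotted lines at the 2-fold limits and a band from the 5th to the 95th percentile of all tested probes. Tex11 crosses the upper limit at 7.5 h and Prmt5 the lower limit at 10 h, while Dmc1 stays inside the band.

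Median log2 folds of all 7422 tested probes were -0.016, -0.029, -0.0081 and 0.0072 at 2.5, 5, 7.5 and 10 h after the deposited quantile normalisation and the shift to a common median, which hold these medians near 0. The closest pair of the 5 in course was Spo11 and Piwil1, with a root mean square difference of 0.153 log2 units over the 4 TSA pools, and the most distant was Tex11 and Prmt5 with 1.84. Among 3363 brighter probes with 1 symbol, the courses most like that of Spo11 belonged to Myef2 (0.0308), Smarcb1 (0.0558) and Hspa14 (0.0619). Hspa14, an HSP70 family member, was also among the 3 most like Piwil1 (0.138), after Mrgbp (0.127) and Hmgb2 (0.128). The nearest to Dmc1 were Hspbp1 (0.0189), Wbp11 (0.0345) and Irak1bp1 (0.0357), and the nearest to Tex11 were Cnp (0.0572), Kcnd2 (0.0811) and Dnajc15 (0.0961). The Dnajc15 probe, 7447, has the ID number next to that of Tex11, 7446. Prmt5 had the least close neighbours, Tesk1 (0.151), Actr1a (0.195) and Nxn (0.21). All of these courses share the control pool and the array pairs.

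**Figure D3:**
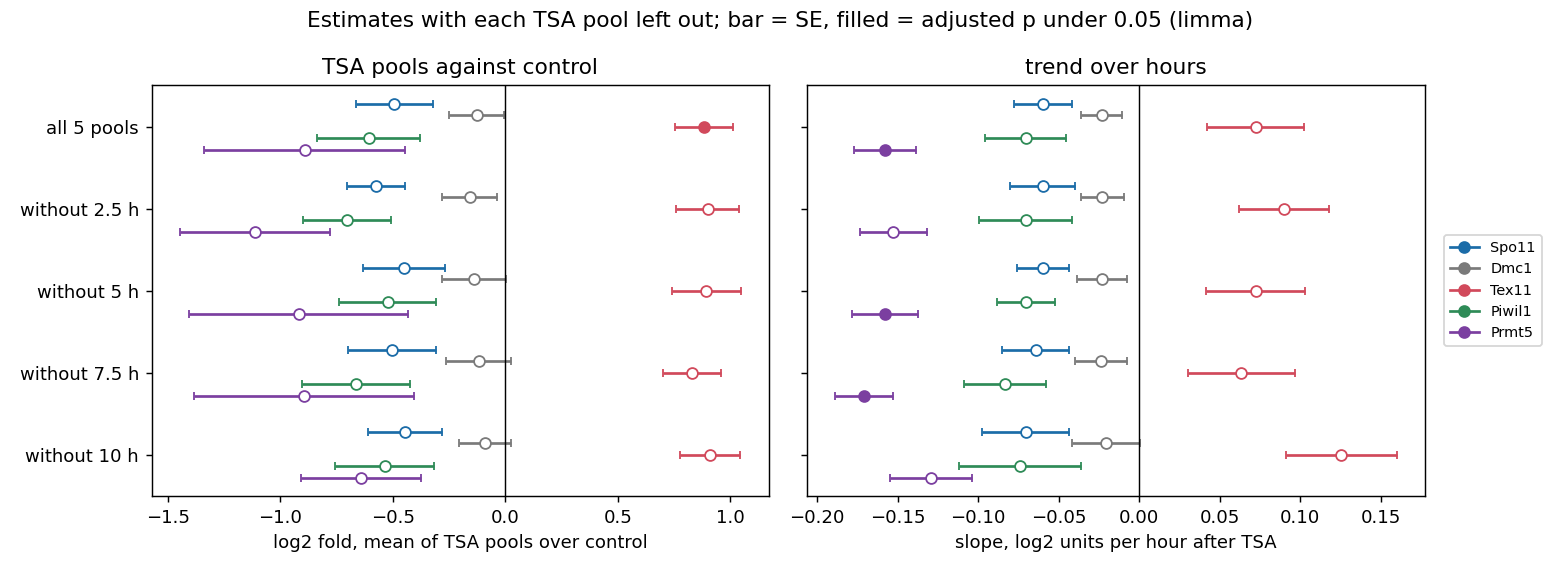
Estimates for the 5 genes with all 5 pools and with each TSA pool left out, as the log2 fold of TSA pools over control (left) and the slope per hour (right). Bars are 1 SE and filled points have a limma adjusted p under 0.05. The Tex11 point is filled only with all pools, and the Prmt5 slope is filled with all pools and without the 5 h or the 7.5 h pool.

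Around the 5 genes stood 5 pathway lists with 122 other genes, of which 53 were tested. In the test of TSA against control 0 of the 53 were called higher and 2 lower, Fignl1 and Asz1 (limma, Benjamini-Hochberg adjusted p = 0.0474 for each), against 2.74% higher and 0.795% lower over all tested probes. Both calls ended when any 1 TSA pool was left out, with limma adjusted p from 0.0598 to 0.110 for Fignl1 and from 0.0604 to 0.110 for Asz1, and 0.0910 and 0.0911 without the 5 h pool. Of all tested probes, those fits called 3, 3, 6 and 7 in either direction, against 262 with all pools. In the trend over hours 0 of the 53 were called rising and 2 falling, Rpa2 and Kif17, against 0.35% rising and 1.66% falling over all tested probes. Both passed without the 5 h pool (limma, adjusted p = 0.0341 for each), and neither passed without the 2.5 h pool (0.0580 for each) or the 10 h pool (0.138 for Rpa2 and 0.125 for Kif17). Without the 2.5 h pool, and likewise without the 10 h pool, 0 of all tested probes passed the trend test. The median log2 fold of TSA pools over control was -0.29 in the 53 genes, against -0.018 in all tested probes, and it was -0.28 in the 53 genes without the 5 h pool. In all 4 TSA pools, folds were below 0 for 36 of the 53 genes (67.9%), and the share over all tested probes was 34.1%. At 10 h, the time matched to control, 46 of the 53 genes (86.8%) were below 0, against 49% of all tested probes. At 10 h the median of each list was below 0, and at 2.5 h the median of 4 of the 5 lists was, the exception being the arginine methyltransferases and Prmt5 partners at 0.068. The spermatocyte marker sums were lower in the TSA pools than in control as well, and their part in the list medians was not tested. The marker list names Sycp1, Sycp3 and Mybl1 in common with these lists. At 10 h, 9 of its 14 tested genes were below control and 5 above.

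Break formation and strand exchange had 16 other tested genes, with a median log2 fold at 10 h of -0.34. Among them Rpa2, part of the complex that covers exposed single DNA strands, fell over the hours. It had a slope of -0.171 ± 0.0196 log2 units for each hour (limma, Benjamini-Hochberg adjusted p = 0.0185) and a 10 h log2 fold of -1.84. Its probe read a mean intensity of 0.261 at 10 h, against 0.935 in control. Fignl1, an ATPase that acts with strand exchange proteins, fell by 0.76 ± 0.12 on the log2 scale in the mean TSA pool, a call that did not hold with any TSA pool left out. Rad54l, a DNA translocase, was at -0.64 (limma, adjusted p = 0.127) and Rpa1, the large subunit beside Rpa2, at -0.46 (limma, adjusted p = 0.0709). Neither of these passed.

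Crossover factors and mismatch repair homologs had 7 other tested genes, none of which passed a test, and all 7 were below control at 10 h with a median of -0.18. Mean log2 folds of TSA over control were -0.47 for Cntd1, a cyclin-like crossover factor, and -0.40 for Msh4, a MutS homolog of meiosis. The helicase Blm was at -0.28 and the nuclease Exo1 at -0.26. Tex11, with a log2 fold of 0.80, was the only gene of the 8 tested in this list above control at 10 h. In the synaptonemal complex and meiotic cohesin list 0 of 8 tested genes passed, with a median of -0.50 at 10 h. Rec8, a cohesin of meiosis, averaged -0.51 and had a trend at a limma adjusted p of 0.0599. Majin, which attaches telomeres to the nuclear envelope, averaged -0.40. The central element genes differed in sign, with 0.37 for Syce2 and -0.32 for Tex12, and neither passed.

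In the piRNA pathway and germ granule list 14 other genes were tested, and all 14 were below control at 10 h with a median of -0.38. Asz1, a germ granule protein of the piRNA pathway, fell by 0.68 ± 0.12 on the log2 scale in the mean TSA pool, which likewise did not pass with any TSA pool left out. Kif17, a kinesin motor, fell over the hours by 0.130 ± 0.0140 log2 units each (limma, Benjamini-Hochberg adjusted p = 0.0183), with a 10 h log2 fold of -1.24. The Tudor domain genes Tdrd1 and Stk31 averaged -0.56 (limma, adjusted p = 0.0602) and -0.44 (adjusted p = 0.130) and did not pass. Among 9 other tested arginine methyltransferases and Prmt5 partners 0 passed. Wdr77, the partner that binds PRMT5 in its complex, had log2 folds of -0.28, -0.33, -0.28 and -0.38 at 2.5, 5, 7.5 and 10 h. Prmt2, another methyltransferase, averaged 0.81 ± 0.17 (limma, adjusted p = 0.0522) and was above control in 4 of 4 pools. Snrpb, a gene for Sm proteins, averaged -0.29, and Prmt1 averaged -0.25.

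**Figure D4:**
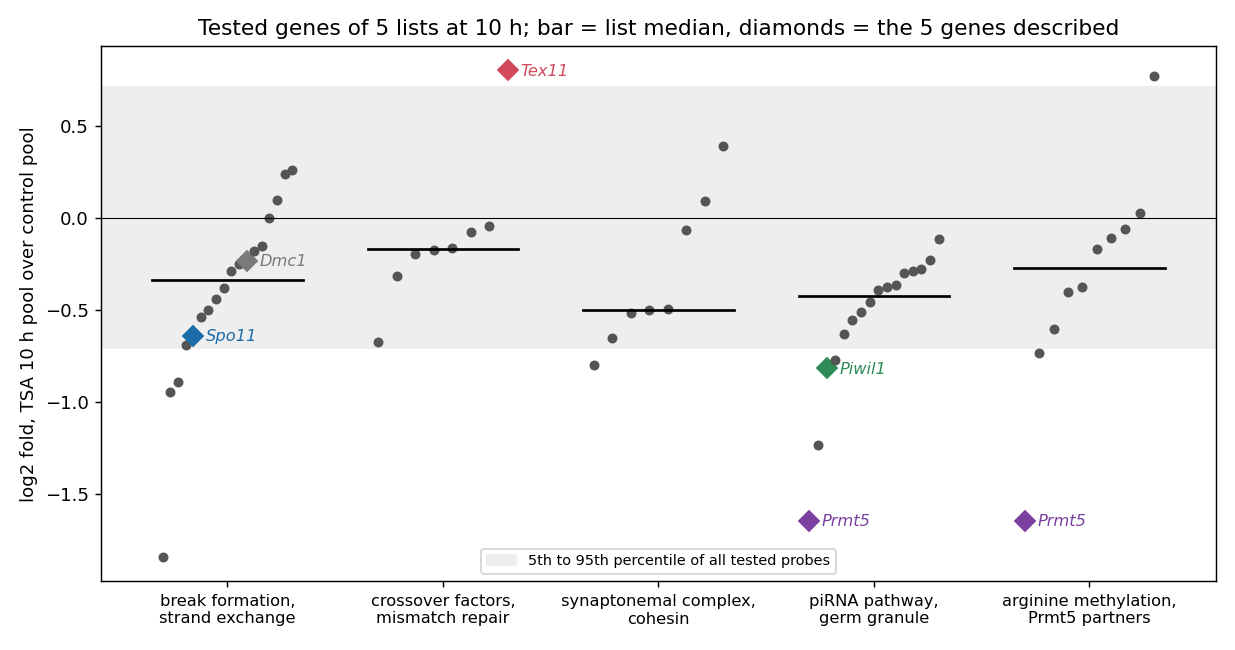
Log2 fold of the TSA 10 h pool over the control pool for every tested gene of the 5 pathway lists, with the 5 genes as diamonds, a bar at each list's median with those genes included, and a band from the 5th to the 95th percentile of all tested probes. Most points lie below 0, Prmt5 stands in both lists that hold it at -1.65, and Tex11 is above the band at 0.80.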

How the data were processed

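The authors deposited normalised intensity values for 10012 probes on each of 10 CodeLink 1-channel (Cy5) arrays (linear scale, median 1.00). Sorted values were identical on all arrays, so the deposited intensities had been quantile normalised. Not given in the sources used here were the scanner program, background handling, spot flags and platform build. On every array 115 probes lacked a value. In all 8983 probes had 1 symbol, 1 had several and 1028 had none.

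A floor at the 5th percentile (0.0364) was set before log2, arrays were shifted to a common median, and the lowest 25% of probes by mean log2 (mean intensity below 0.207) were left out. The size rule at each time gives no p-value. The 5 pool means (3 residual degrees of freedom) were fitted with limma 3.58.1 (R 4.3.3), two-sided, with Benjamini-Hochberg adjustment over 7422 probes and a threshold of 0.05. One fit compared the 4 TSA pools with control, which assumes that the lone control pool varies like them, and another took a slope per hour with control at 0 h. A script searched promoters in Python 3.11.15, and figures used matplotlib 3.10.9. Arrays have no counting depth, and precision depends on their number. Code was tested on simulated data.

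Duplicate arrays share a number across pools, but over 10 pairs of pools the deviations of arrays with the same number had correlations from -0.187 to 0.14, so the numbers do not pair them. The members and gene lists were chosen with earlier results of these data known. Named genes were the 5 genes, up to 4 tested others per list with the largest absolute mean log2 fold, and the 3 brighter probes nearest in course to each of the 5. Alternatives were other filters, floors, offsets and scalings, arrays and pools left out, 1.5-fold and 3-fold rules, 10-array fits with array number or pool as a block, eBayes with trend and robust on, TSA and hours in 1 fit, and gene means.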

Additional observations from a re-analysis of the deposited data

How the results depend on the processing

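Tex11 kept its direction in 28 of 28 alternatives to the test of TSA against control and its call in 16, and the Prmt5 trend kept its call in 21 of 27. No shift, quantile normalisation, no floor and gene means left both estimates unchanged, at 0.88 and -0.158. With identical sorted values, 1 probe per gene and levels above the floor, these alternatives could hardly change a call. The Tex11 calls also include the 10-array fits, which enter duplicates as separate arrays. The limma adjusted p ranged from 0.000518 to 0.169 for Tex11 and from 0.000257 to 0.161 for Prmt5. For TSA against control it ranged from 0.0146 to 0.519 for Spo11 and from 0.0253 to 0.561 for Piwil1, each passing in 2 of 28, the array-number and pool blocks. Counts of all probes called (and of the 5 genes) were 262 (1) for TSA against control and 149 (1) for the trend. Without the filter they were 1 (0) and 0 (0). With the lowest 50% left out, Dmc1 and Prmt5 were not tested, and the counts were 573 (1) and 179 (0). An offset of 0.5 gave 560, and centring on ID number 99. With that centring the log2 fold of TSA over control was -0.65 for Spo11, -0.12 for Dmc1 and 0.92 for Tex11. Their limma adjusted p values were 0.0901, 0.617 and 0.0461, so Tex11 kept its call. Without the 2.5, 5, 7.5 and 10 h pool TSA calls were 3, 3, 6 and 7 (0 of the 5 each) and trend calls 0, 41, 29 and 0 (0, 1, 1 and 0). Leaving out arrays gave 1 to 496 and 24 to 193 (0 to 1 each). With the array number as a replicate block on 10 arrays, which treats duplicates as samples, they were 2388 (3) and 2111 (4). With the pool as a random block they were 1044 (3) and 719 (3), with trend and robust on 795 and 289, and with TSA and hours in 1 limma fit 0 (0) and 0 (0). At an unadjusted p under 0.05, limma had 1497 probes for TSA and 1251 for the trend in that fit, and trend counts of 1863 without the filter, 2126 with 2.5 h left out and 1190 with 10 h left out. In the fit of both, the TSA term is the difference from control left after a slope over hours is taken out. It is thus not the same quantity as the log2 fold of TSA pools over control. That term was above 0 for Dmc1 (0.036) and Prmt5 (0.19).

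Size rule counts were 68, 115, 142 and 198 at 2.5, 5, 7.5 and 10 h (0, 0, 1 and 1 of the 5). Without the filter they were 219, 355, 554 and 458. With the lowest 50% left out they were 16, 27, 37 and 73 (0 at 10 h, where Prmt5 and Dmc1 were not tested). With the offset they were 13, 43, 17 and 30 (0 at 7.5 and 10 h). At 1.5-fold they were 562, 730, 876 and 1221 (1, 4, 2 and 4), and at 3-fold 12, 42, 16 and 29 (0 at 7.5 h). Leaving out arrays gave 0 to 2 of the 5 at 7.5 h.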

Other observations

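Spo11 and Piwil1 were nearer to control at 7.5 h than at 5 and 10 h. Among the 53 other tested pathway genes, 25 (47.2%) likewise had a log2 fold at 7.5 h above both the 5 h and the 10 h value, against 32.5% of all 7422 tested probes. Rad54l gave -0.35, -0.83, -0.49 and -0.89 at 2.5, 5, 7.5 and 10 h, and Stk31 gave -0.35, -0.59, -0.28 and -0.55. Spermatocyte marker sums were 540 to 543 at 5 h, 549 to 560 at 7.5 h and 537 to 543 at 10 h, and Leydig cell marker sums (7 of 10 measured) were 136 to 139, 125 to 126 and 142 to 148 at those times, against 568 to 584 and 126 to 132 in control. Their part in the pattern was not tested. The 7.5 h pool was also the one whose duplicate arrays differed most. The 5 h pool, on which the pattern also rests, stood apart with liver marker sums of 210 and 211, against 17.3 at 7.5 h and 18.0 to 18.2 at 10 h. The pattern at 7.5 h was picked after the values were seen, and it was not tested.

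Other piRNA genes, also picked after their values were seen, did not all follow Piwil1. Piwil2, a related Piwi gene, had log2 folds of 0.13 ± 0.26, -0.086 ± 0.26, 0.090 ± 0.24 and -0.11 ± 0.23 at 2.5, 5, 7.5 and 10 h. Each was smaller than its SE from duplicate arrays. Mybl1, the MYB factor of pachytene spermatocytes, gave 0.045, -0.43, -0.31 and -0.77, with a limma adjusted p of 0.0820 for its trend. Like Piwil1, it was nearer to control at 7.5 h than at 5 and 10 h.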
